A study of Drosophila melanogaster with 48 samples.

Results

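MsrA, smp-30 and Cipc are the 3 genes whose RNA fell in both the gut and the fat body of S106>Xbp1s flies fed RU486. They were chosen by that readout: each had a negative log2 fold change and passed an FDR of 10% in the authors' tables for both tissues. They are 3 of 16185 gene identifiers in the largest deposited table, and 3 of the 6089 for which both tissues have an adjusted p-value, or 0.0493%. The falls in S106>Xbp1s are therefore a description of how the genes were picked. Genes called in driver-alone flies were removed from the transgene comparisons of that organ, so none of the 3 could be called there. Only in S106>Xbp1U was a call left free by the choice of genes.

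The samples were guts and fat bodies of mated adult females, with 12 organs pooled per library, dissected on day 9 after 7 days on food with 200 µM RU486 (RU+) or with its ethanol vehicle (RU-). All females were in the wDah background (w1118, free of Wolbachia) and all carried S106, a GeneSwitch driver that RU486 turns on in gut and fat body. S106>Xbp1s also carried the spliced form of Xbp1, S106>Xbp1U carried an unspliced form with a mutation before the splice site that keeps it from being spliced, and driver-alone flies carried no Xbp1 transgene. For S106>Xbp1s there were 3 gut libraries with and 3 without RU486, and 4 and 4 from fat body. Driver-alone flies gave 4 gut libraries with and 5 without RU486, and 5 and 5 from fat body. S106>Xbp1U gave 4 and 4 from gut, and 4 with and 3 without RU486 from fat body. GeneSwitch is active in whichever cells express the S106 insertion, so these are whole organs and not 1 cell type, and the fat body was taken with the abdominal cuticle attached.

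MsrA encodes a methionine sulfoxide reductase, which returns oxidised methionine in proteins to methionine with electrons from thioredoxin. It was first described in flies as an ecdysone-induced gene (Eip71CD). smp-30 belongs to the family of senescence marker protein-30, also called regucalcin, which in rat liver declines with age and in mammals binds calcium and acts as a gluconolactonase. In flies it was first described as a gene induced by cold acclimation (Dca). Cipc is named after the mammalian CLOCK-interacting pacemaker, which in mouse represses the transcription factor CLOCK, the activator at the head of the daily clock. The gut and the fat body, the counterpart of liver and adipose tissue, are the main digestive and metabolic organs of the fly.

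In the BDGP6.54 annotation, which uses the same assembly as dm6, MsrA (FBgn0000565) lies on chromosome 3L from 15511052 to 15513202 on the plus strand, with 6 transcripts and 1354 bases of exon. smp-30 (FBgn0038257) lies on chromosome 3R from 14745901 to 14751246 on the minus strand, with 4 transcripts and 1666 bases of exon. Cipc (FBgn0051324) lies on chromosome 3R from 26106868 to 26130674 on the plus strand, with 3 transcripts and 3925 bases of exon. The span of smp-30 overlaps jvl on the other strand, and the span of Cipc overlaps CG14556 and lncRNA:CR46060, but none of them shares an exonic base with either gene. Reads were counted over whole exons, so transcripts of 1 gene were not told apart.

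Each deposited table gives 1 mean normalized count per gene over both groups, 1 log2 fold change of RU+ over RU- and its standard error, and no value of a single library. Whether RU+ and RU- libraries overlap can therefore not be seen, and the standard errors (SE) stand for the spread between replicates. The mean counts summed to between 22483518 and 25130044 per table. For genes whose mean was 100 or more, the median SE was 0.20 and 0.15 in S106>Xbp1s gut and fat body, 0.23 and 0.26 in driver alone, and 0.18 and 0.38 in S106>Xbp1U. Enterocyte and fat body markers matched the labelled organs. The 6 enterocyte genes made up 45151 to 60839 of every 1000000 summed counts (ppm) in gut against 133 to 587 in fat body. The 6 fat body genes made up 59456 to 98732 ppm in fat body against 537 to 1651 in gut. Fat body libraries also held 3 oenocyte genes at 30474 to 46448 ppm, 5 muscle genes at 1048 to 1926 and 5 ovary and eggshell genes at 790 to 1262. Of the fat body markers, Lsp2 (1.80 to 3.65 ppm) and Fbp1 (0.351 to 1.19) were low in fat body too. Xbp1 itself had log2 fold changes of 0.41 (SE 0.18) in gut and -0.02 (SE 0.12) in fat body of S106>Xbp1s. In S106>Xbp1U it stood at 0.03 (SE 0.20) in gut and 0.89 (SE 0.53) in fat body. In driver alone it stood at -0.39 (SE 0.26) in gut and -0.06 (SE 0.26) in fat body. None of these was called, so these values do not show the induction, and RU+ follows the label. For S106>Xbp1U with RU486, the paper reports that Salmon found the mutation in the reads.

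MsrA was about 40% lower with RU486 in both organs of S106>Xbp1s, where it is an abundant RNA. In the gut of S106>Xbp1s its RU- and RU+ means implied by the authors' table were 8081 and 4600 normalized counts. That is a log2 fold change of -0.81 (SE 0.23, adjusted p = 0.0328), or 43.1% lower with RU486. In the fat body the means were 8235 and 4936, a log2 fold change of -0.74 (SE 0.18, adjusted p = 0.00287) or 40.1% lower. The authors called 114 genes (1.38%) in gut, of which 47 (0.568% of genes tested) fell and 67 (0.81%) rose. In fat body they called 772 (12%), of which 380 (5.89%) fell and 392 (6.08%) rose. Ranked by p-value among the falling calls, MsrA was at place 36 of 47 in gut and 60 of 380 in fat body. In these bulk samples, fewer cells of a type and less RNA per cell cannot be told apart.

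smp-30 fell less than MsrA in both organs. In the gut of S106>Xbp1s the implied means were 10490 in RU- and 6931 in RU+, a log2 fold change of -0.60 (SE 0.17, adjusted p = 0.0383) or 33.9% lower. In the fat body they were 6229 and 4746, a log2 fold change of -0.39 (SE 0.12, adjusted p = 0.0323) or 23.8% lower. smp-30 was at place 38 of 47 by p-value in gut and 192 of 380 in fat body, so of the 3 genes it lay nearest the threshold in both.

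Cipc fell the most in gut and was the least abundant of the 3. Its implied means in the gut of S106>Xbp1s were 421 in RU- and 203 in RU+, a log2 fold change of -1.05 (SE 0.27, adjusted p = 0.0145) or 51.7% lower. In the fat body they were 698 and 421, a log2 fold change of -0.73 (SE 0.17, adjusted p = 0.00158) or 39.7% lower. Cipc was at place 28 of 47 by p-value in gut and 46 of 380 in fat body. Its gut change is itself the median of the 47 falling gut calls (-1.05), and MsrA and smp-30 were smaller than that. In fat body all 3 genes fell by more than the median falling call (-0.37).

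**Figure D1:**
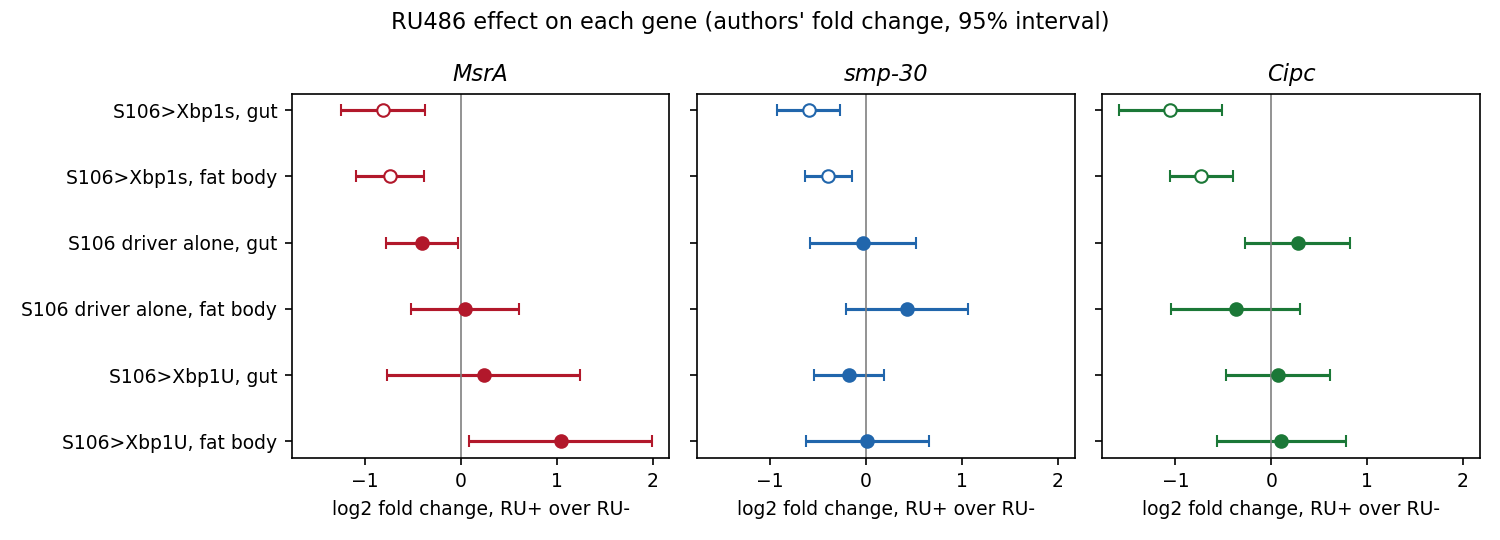
Log2 fold change of RU+ over RU- (x axis, log2 scale) for each gene in the 6 comparisons (rows), with 95% intervals from the authors' standard errors; open circles mark the S106>Xbp1s comparisons that chose the genes. The Xbp1s values lie between -1.05 and -0.39, and 10 of the other 12 intervals hold 0.

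In driver-alone flies and in S106>Xbp1U flies no gene of the 3 passed the threshold in either organ. Of 12 values, 0 were called by the authors' DESeq2 test, 0 by its weighted form, and 2 had an unadjusted p under 0.05. The driver-alone values among them could not be called by that test, since genes called there were removed from the S106>Xbp1s comparison of that organ. Over all genes the called shares were 0.262% in driver-alone gut, 0.0068% in driver-alone fat body, 0.092% in S106>Xbp1U gut and 0.0968% in S106>Xbp1U fat body. The shares at an unadjusted p under 0.05 were 2.24%, 0.966%, 1.56% and 1.6% in the same order. 4 of the 12 log2 fold changes were below 0 and 8 were above.

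Both values with a small unadjusted p belonged to MsrA, and they had opposite signs. In driver-alone gut the implied mean was 9674 in RU- and 7291 in RU+, a log2 fold change of -0.41 (SE 0.19, 95% interval -0.79 to -0.03, DESeq2 unadjusted p = 0.0345, adjusted p = 1). No Xbp1 transgene was present in those flies. In S106>Xbp1U fat body the implied mean was 2851 in RU- and 5864 in RU+, a log2 fold change of 1.04 (SE 0.49, interval 0.08 to 2.0, DESeq2 unadjusted p = 0.0330, adjusted p = 1). In driver-alone fat body the change was 0.04 (SE 0.29) from 6371 to 6570, and in S106>Xbp1U gut 0.24 (SE 0.51) from 6127 to 7216. The last interval, -0.77 to 1.24, is wide: 98% of the 200 genes with the most similar mean had a smaller SE in that table.

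For smp-30 every interval in these 4 comparisons held 0. The log2 fold change was -0.03 (SE 0.28) in driver-alone gut, where the implied mean was 11462 in RU- and 11190 in RU+. It was 0.43 (SE 0.33) in driver-alone fat body, from 4404 to 5923. In S106>Xbp1U it was -0.18 (SE 0.19) in gut, from 13133 to 11630, and 0.01 (SE 0.33) in fat body, from 6142 to 6194.

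Cipc likewise had intervals that held 0 in all 4. The log2 fold change was 0.28 (SE 0.28) in driver-alone gut, from 440 to 533, and -0.37 (SE 0.34) in driver-alone fat body, from 594 to 459. In S106>Xbp1U it was 0.07 (SE 0.28) in gut, from 376 to 394, and 0.11 (SE 0.34) in fat body, from 543 to 585.

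These tables limit how small a change could be called. At each gene's own SE and the smallest called statistic of its table, a change of 0.70 to 2.01 on the log2 scale was needed in the 12 values. By size alone, a change as large as in S106>Xbp1s would have been called in 2 of 12, MsrA and Cipc in driver-alone gut. A call in driver-alone flies would have kept the gene out of the set. Every missing call in those flies, these 2 included, thus follows from how the genes were chosen. In the other 10 values a missing call does not by itself show that a change of that size was absent. Taken alone, the 95% interval lay above the S106>Xbp1s value of the same gene and organ in 10 of 12, the exceptions being smp-30 in S106>Xbp1U fat body and Cipc in driver-alone fat body. This leaves out the error of the S106>Xbp1s value, which also chose the genes, and is no test.

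The differences between genotypes and between organs that hold no S106>Xbp1s library were tested for all 3 genes, 12 differences in all, with a z statistic over all genes and Benjamini-Hochberg adjustment. None passed an FDR of 10% (adjusted p about 1 for each) and 0 had an unadjusted p under 0.05. Over all genes, the share called was 0% for S106>Xbp1U minus driver alone in gut, 0.0736% for the same in fat body, 0.0222% for gut minus fat body in driver alone, and 0.0573% for gut minus fat body in S106>Xbp1U. The shares at an unadjusted p under 0.05 were 1.42%, 1.59%, 1.45% and 1.72% in the same order. The largest was MsrA in S106>Xbp1U minus driver alone in fat body, at 1.0 (SE 0.57, interval -0.11 to 2.10, unadjusted p = 0.0783). Next in size were MsrA in gut minus fat body of S106>Xbp1U at -0.80 (SE 0.71) and Cipc in gut minus fat body of driver alone at 0.65 (SE 0.44). The interval of every one of the 12 held 0, and the widest, that of MsrA between the organs of S106>Xbp1U, ran from -2.19 to 0.59. A gene called in driver-alone flies could not be among the 3, so differences that use those flies are not free of the choice. Only gut minus fat body in S106>Xbp1U uses neither those flies nor S106>Xbp1s.

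Set beside driver-alone flies, the S106>Xbp1s effect was lower for each gene in both organs, though 3 of the 6 intervals held 0 (MsrA and smp-30 in gut, Cipc in fat body). These differences include the values that chose the genes and have no test. In gut, S106>Xbp1s minus driver alone was -0.40 (SE 0.30) for MsrA, -0.56 (SE 0.33) for smp-30 and -1.33 (SE 0.39) for Cipc. In fat body it was -0.78 (SE 0.34) for MsrA, -0.82 (SE 0.35) for smp-30 and -0.36 (SE 0.38) for Cipc. Against S106>Xbp1U the gut differences were -1.05 (SE 0.56), -0.42 (SE 0.25) and -1.12 (SE 0.39) in the same order of genes, and the fat body differences were -1.78 (SE 0.52), -0.40 (SE 0.35) and -0.84 (SE 0.38). Within S106>Xbp1s, gut minus fat body was -0.07 (SE 0.29), -0.21 (SE 0.21) and -0.32 (SE 0.32), each about its SE or less.

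The abundance of the 3 genes was set side by side as a share of the summed mean counts of a table, since the tables were normalized separately. MsrA took 271, 383 and 284 ppm in gut of S106>Xbp1s, driver alone and S106>Xbp1U, and 262, 266 and 199 in fat body. Its rank among all genes ranged from 363 to 635. smp-30 took 372, 504 and 527 ppm in gut and 218, 212 and 269 in fat body, with ranks from 287 to 598. Cipc took 13.4, 21.4 and 16.4 ppm in gut and 22.3, 21.6 and 24.7 in fat body, with ranks from 4081 to 4867. Per kilobase of exon, the shares were 147 to 283 for MsrA, 127 to 317 for smp-30 and 3.40 to 6.29 for Cipc. The share of smp-30 was larger in gut than in fat body in all 3 genotypes, by 1.71 to 2.38 times, and that of MsrA by 1.03 to 1.44 times. For Cipc the fat body share was larger in all 3, by 1.01 to 1.67 times. No SE can be given for a share, so these ratios have no test, and with MsrA in S106>Xbp1s (1.03) and Cipc in driver alone (1.01) the organs are next to equal.

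**Figure D2:**
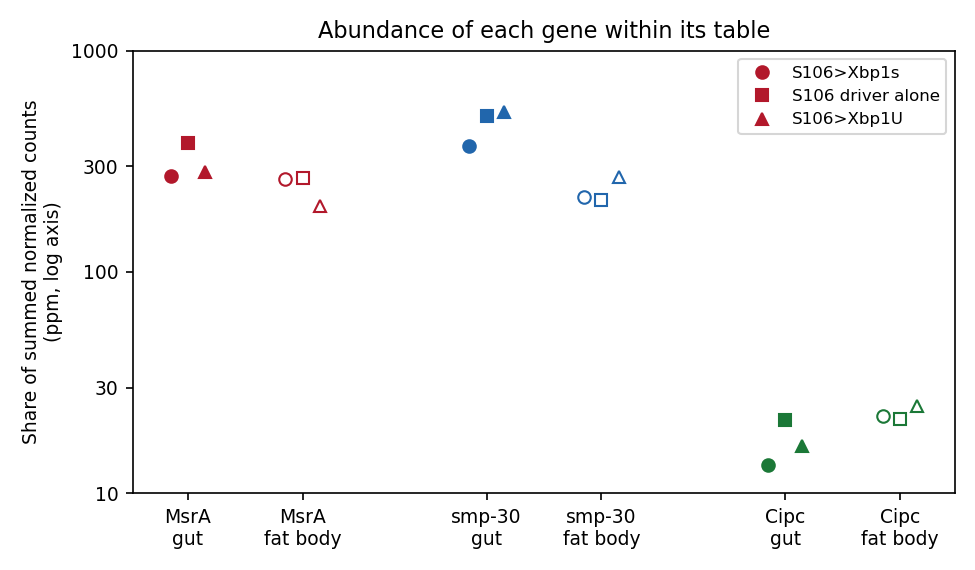
Share of summed mean normalized counts (y axis, ppm, log axis) of each gene in gut (filled) and fat body (open), by genotype. MsrA and smp-30 lie between 199 and 527 ppm, and Cipc between 13.4 and 24.7.

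Markers of several cell types also differed with RU486 in these libraries, and their part in the values of the 3 genes was not tested. In S106>Xbp1s fat body, where 12% of all genes were called, the 5 muscle genes were all below 0, with 3 of 4 tested called. The 3 oenocyte genes were all below 0 with 2 of 3 tested called. The 6 fat body genes were all below 0 too, with 1 of 4 tested called. In the same table the 6 enterocyte genes were all above 0 (median 1.35, 1 of 3 tested called) at a summed share of 512 ppm. Of 5 ovary and eggshell genes, all tested, 4 were above 0 and 2 were called. In driver-alone fat body, where smp-30 stood at 0.43, the 6 enterocyte genes were all above 0 as well (median 2.18). Of these, 0 were called, against 0.0068% of all genes, and 4 had an unadjusted p under 0.05, against 0.966%. In S106>Xbp1s gut the 6 fat body genes were all below 0 (median -0.37) at a summed share of 537 ppm, 0.544% of their share in fat body. Of 4 tested, 0 were called, against 1.38% of all genes. The tubule gene Uro, 1 of 2 tested, fell by 1.08 on the log2 scale (SE 0.30, adjusted p = 0.0333). Of the tubule genes, 3 of 4 were below 0 at a summed share of 20.3 ppm. The share of MsrA in that gut table was 1.03 times its fat body share, and that of smp-30 was 1.71 times. In driver-alone gut, where MsrA stood at -0.41, all 4 tubule genes (median -0.82) and all 3 oenocyte genes (median -0.65) were below 0. The 5 muscle genes in that gut comparison were all above 0 (median 0.12). In S106>Xbp1U fat body, where MsrA stood at 1.04, 5 of 6 fat body genes were above 0 (median 0.58). Of the tubule genes in that fat body comparison, 3 of 4 were below 0 (median -0.90). None of the markers was at 0.

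Only the 3 genes were called in both organs, so none of their relatives could be, and their values are given by organ. Regucalcin, the other fly gene of the SMP30 family, fell in S106>Xbp1s fat body (log2 fold change -0.47, SE 0.16, adjusted p = 0.0452) and stood at -0.18 (SE 0.15, adjusted p = 1) in gut. In driver-alone and S106>Xbp1U flies it stood between -0.23 and 0.25. Per kilobase of exon its share was 33.1 to 39.5 ppm in gut against 224 to 317 for smp-30, and 93.3 to 127 in fat body against 127 to 161. SelR, the reductase that acts on the other stereoisomer of methionine sulfoxide, stood at -0.05 (SE 0.16) in gut and -0.23 (SE 0.16) in fat body of S106>Xbp1s and was not called. Clk, the fly counterpart of the protein that mammalian CIPC represses, stood at -0.49 (SE 0.19, unadjusted p = 0.0114, adjusted p = 0.463) in gut and -0.37 (SE 0.19, adjusted p = 0.229) in fat body. The shift of Clk was thus of the same sign as that of Cipc but not past the threshold.

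Over 6 lists of genes from the pathways around the 3, 1 of 75 tested genes was called in S106>Xbp1s gut and 12 of 69 (17.4%) in fat body, against 1.38% and 12% of all genes. Of these, 0 of 13 tested methionine sulfoxide and thiol redox genes were called in gut and 0 of 13 in fat body. Of the methionine cycle and transsulfuration genes 0 of 13 were called in gut. In fat body 2 of 12 were: Sms, for spermine synthase, rose (log2 fold change 0.57, SE 0.15, adjusted p = 0.00913) and Gnmt, for glycine N-methyltransferase, fell (-0.47, SE 0.18, adjusted p = 0.0885). Of the calcium store and pump genes, Calr, for the ER calcium store protein calreticulin, rose in gut (0.60, SE 0.18, adjusted p = 0.0775), 1 of 13 tested, and regucalcin was the 1 of 12 called in fat body.

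The pentose phosphate genes were included because mammalian SMP30 acts on a sugar lactone. In S106>Xbp1s fat body 3 of 7 tested fell, against 5.89% of all genes: Zw, the glucose-6-phosphate dehydrogenase (-0.25, SE 0.08, adjusted p = 0.0452), Pgls, the lactonase next in the pathway (-0.28, SE 0.10, adjusted p = 0.0757), and Taldo, transaldolase (-0.35, SE 0.10, adjusted p = 0.0121). All 7 were below 0 there (median -0.25) and in gut (median -0.08), where none was called. The median over all genes tested was 0.02 in fat body and 0.01 in gut. In driver-alone gut 6 of 8 were also below 0 (median -0.23), and in S106>Xbp1U fat body 6 of 8 were above 0 (median 0.71), with 0 called in either.

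Of the circadian clock genes 0 of 17 were called in gut, against 1.38% of all genes, and 4 of 16 in fat body, against 12%. Cry, the light receptor of the fly clock, fell (-0.37, SE 0.07, adjusted p = 0.000123). The kinase dco rose by 0.27 (SE 0.10), the kinase subunit CkIIalpha by 0.25 (SE 0.10) and the phosphatase subunit tws by 0.19 (SE 0.07). Of the ecdysone genes 0 of 12 tested were called in gut and 2 of 9 rose in fat body, against 6.08% of all genes. These were ftz-f1 (0.50, SE 0.10) and Hr39 (0.43, SE 0.15), both nuclear receptors. In the other 4 comparisons 0 of the 321 tested values over the 6 lists were called, against 0.0068% to 0.262% of all genes. Of 327 values with a p-value, 9 had an unadjusted p under 0.05, against 0.966% to 2.24% of all genes. MsrA, smp-30 and Cipc themselves are left out of these counts.

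Among the 6089 genes, 87 (1.43%) were called in gut and 677 (11.1%) in fat body, and the 3 genes are 3.45% of the first and 0.443% of the second. Called or not, 1217 genes were below 0 in both organs. Among genes just outside the rule, CG3301 was called in gut (-0.59, SE 0.15, adjusted p = 0.00776) but stood at -0.30 (SE 0.13, adjusted p = 0.123) in fat body. CG7778 was called in fat body (-0.52, SE 0.15, adjusted p = 0.0205) and stood at -0.90 (SE 0.30, adjusted p = 0.15) in gut. CG18473 (-1.21 and -0.46), CG6656 (-0.68 and -0.31) and Fmo-2, a flavin monooxygenase (-0.53 and -0.25), were not called in either organ.

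**Figure D3:**
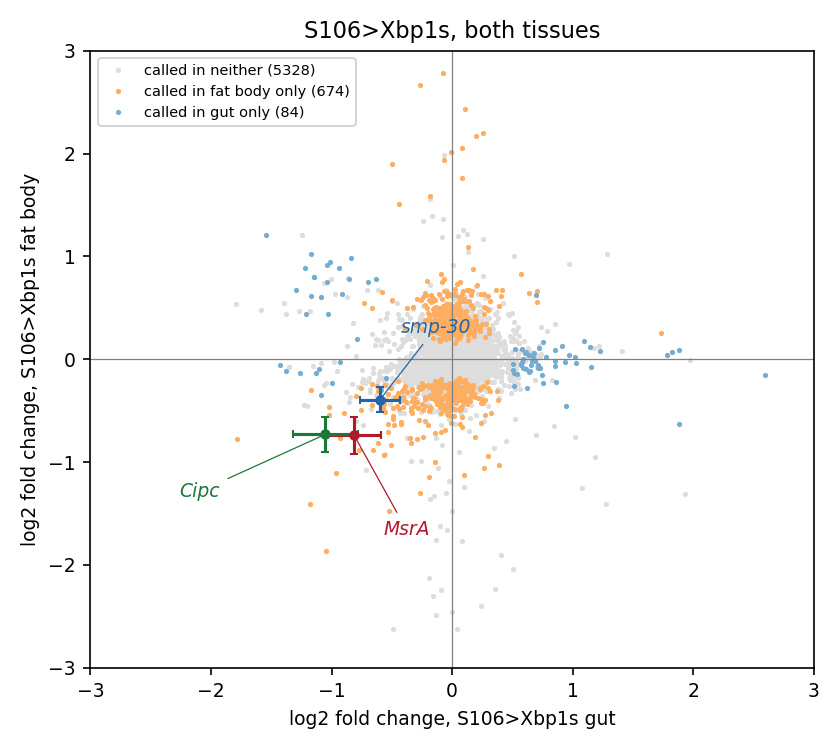
Log2 fold change in S106>Xbp1s gut (x axis) and fat body (y axis) for the 6089 genes tested in both; bars on the 3 genes are 1 SE and 4 genes lie outside the axes of ±3. All 3 sit in the lower left, while 84 genes were called in gut only and 674 in fat body only.

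Of 15 genes next to or overlapping the 3 on the chromosome, 7 had an adjusted p in S106>Xbp1s gut and 3 in fat body, and 0 of these were called, against 1.38% and 12% of all genes. The others had no adjusted p and were not open to a call. No neighbour had an unadjusted p under 0.05 in any of the tables. In driver-alone and S106>Xbp1U flies 0.966% to 2.24% of all genes did. Several neighbours had very low counts and wide errors, such as lncRNA:CR46060 in S106>Xbp1s gut (mean count 0.52, SE 4.01). For these a small p was hardly open. The annotated end of gdl lies 4 bases before MsrA, and gdl stood at 0.50 (SE 0.77) in gut and 0.43 (SE 0.40) in fat body of S106>Xbp1s at mean counts of 14.9 and 42.8. Jvl, which overlaps smp-30 on the other strand, stood at 0.02 (SE 0.14) and 0.14 (SE 0.09), and eff, which encodes a ubiquitin-conjugating enzyme, at -0.01 (SE 0.13) and 0.08 (SE 0.09). CG6142 near Cipc, the neighbour with the smallest unadjusted p (0.0689, in fat body), stood at -1.23 (SE 1.32) and -0.87 (SE 0.48), with mean counts of 7.81 and 28.0.

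**Figure D4:**
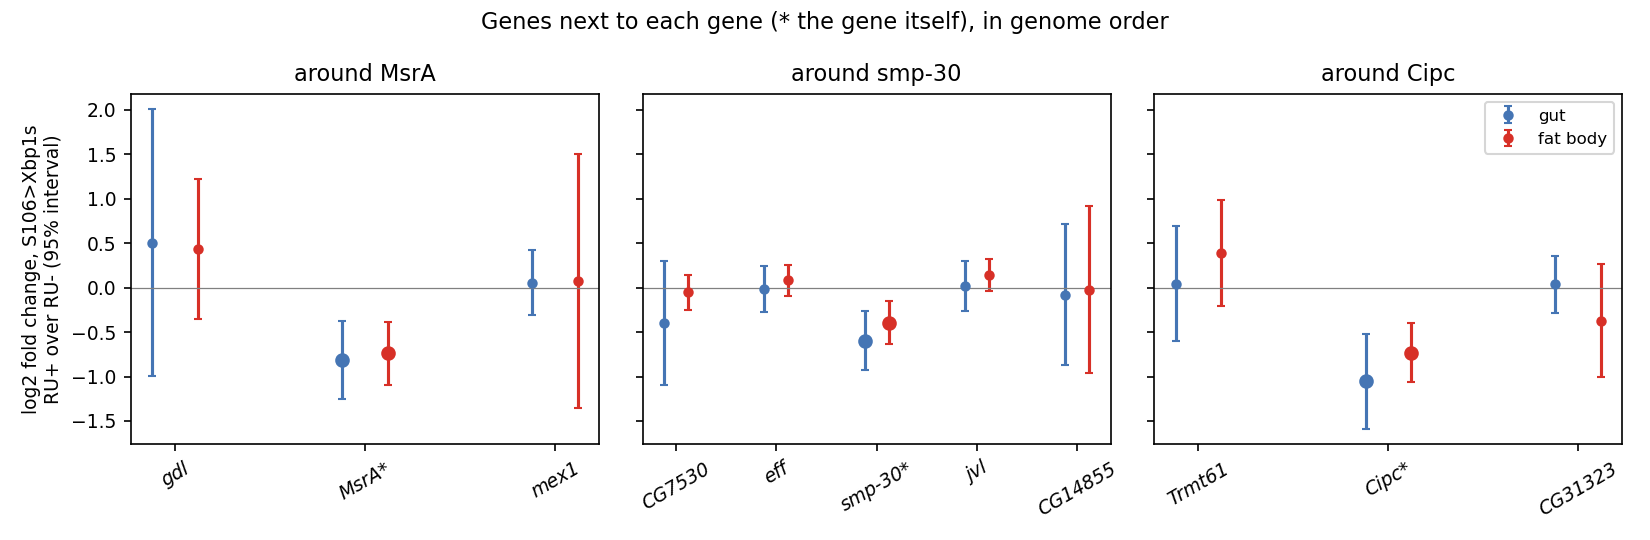
Log2 fold change in S106>Xbp1s gut and fat body (y axis, 95% intervals) of each gene (marked *) and its annotated neighbours in genome order; neighbours with a mean count under 10 in either organ are left out. The 3 genes were chosen by their falls in these comparisons, so their intervals lie below 0. The intervals of their plotted neighbours hold 0.

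The genes closest to each in their 6 log2 fold changes were found by the root mean square difference over the comparisons, among 6081 genes whose mean was 100 or more in every table. For MsrA they were CG17108 (0.18), pio (0.30) and Bcat (0.31), where the median gene stood at 0.68. CG17108 stood at 1.17 (SE 0.65) in S106>Xbp1U fat body, beside 1.04 for MsrA. For smp-30 they were CG31300 (0.13), the carboxylesterase gene alpha-Est7 (0.15) and CG6067 (0.18), with the median gene at 0.41. For Cipc they were CG7778 (0.17), the cuticle protein gene Cpr67B (0.22) and CG1143 (0.23), with the median gene at 0.60. Between the 3 genes, MsrA and smp-30 differed by 0.53, MsrA and Cipc by 0.52 and smp-30 and Cipc by 0.43. Ordered by likeness to Cipc, smp-30 was at place 131 and MsrA at 688 of 6081. Ordered by likeness to smp-30, Cipc was at place 3863 and MsrA at 5460. With MsrA as the reference, Cipc was at place 303 and smp-30 at 381, so the place depends on the reference gene. These are 6 values that share the rule's comparisons, and no test was made.

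**Figure D5:**
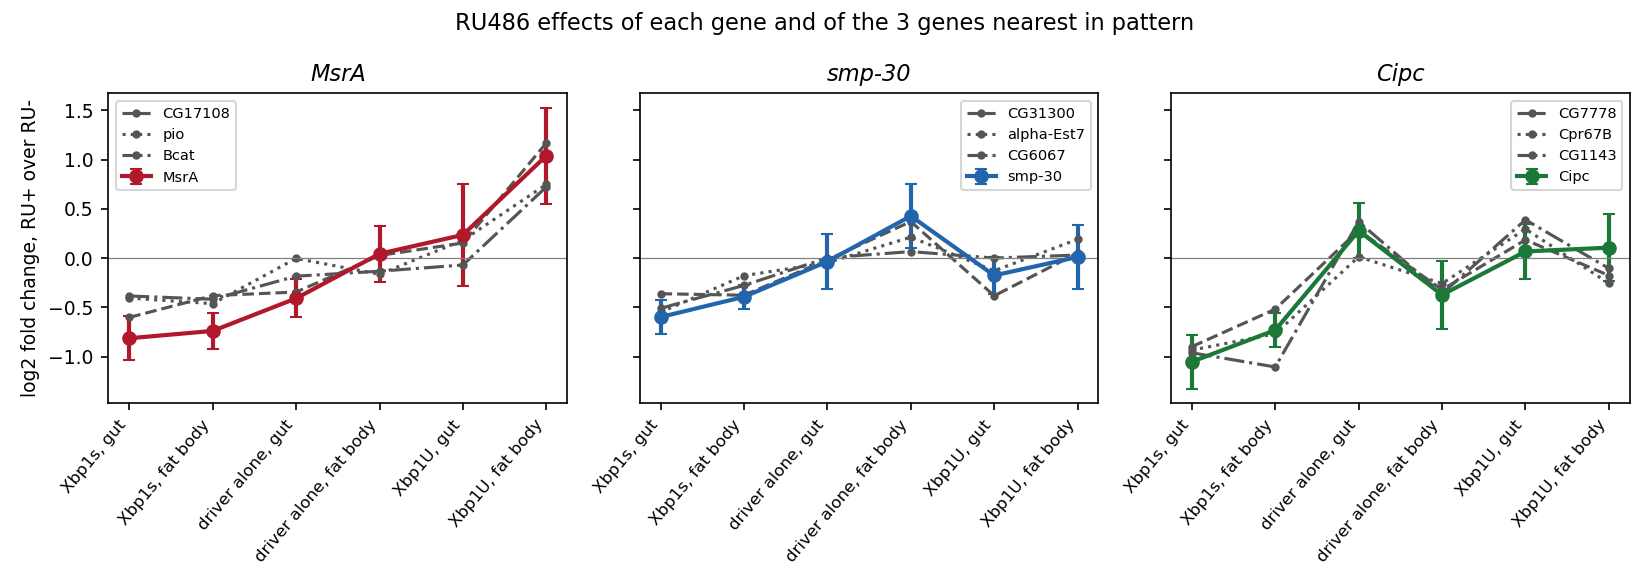
Log2 fold change (y axis) of each gene, with 1 SE bars, and of the 3 genes nearest to it in pattern over the 6 comparisons; the lines only join values of 1 gene. MsrA stands at 1.04 in S106>Xbp1U fat body, where smp-30 and Cipc stand at 0.01 and 0.11.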

How the data were processed

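The authors checked reads with FastQC, aligned them to dm6 with HISAT2, counted exon reads per gene with featureCounts, removed libraries that clustered away, and fitted each genotype and tissue with DESeq2. The deposited signal is the mean over a comparison of counts divided by size factors. Deposited log2 values are the fold changes of RU+ over RU- with their standard errors, and the deposited score is their ratio, the Wald statistic. Deposited p-values come unadjusted, with Benjamini-Hochberg adjustment and with hypothesis weighting. Because the tables hold comparisons only, these were used as they stand; edgeR, planned for counts, was not run. The 24 genes called in driver-alone gut and the 1 in fat body are absent from the transgene tables of that organ.

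Calls used an FDR of 10%, and intervals are 95% normal intervals. Implied group means combine the mean, the fold change and the group sizes. Differences were tested by z, keeping genes with a mean count of 10 or more in both tables, which ignores that gut and fat body came from the same flies. Named genes were the 3 genes, the 3 nearest in pattern to each, the 2 nearest annotated genes on each side, the 5 just outside the rule, regucalcin, SelR, Clk, and listed genes called in any comparison. Members, lists and tests were chosen with earlier results of these data known. Symbols came from BDGP6.54, which named 16152 of 16185 identifiers. The calculations were tested on simulated data. P-values set each change against an error estimated from the spread between pools of flies. Alternatives were an FDR of 5%, adjustment over other gene sets, weighted p-values, other count minimums, shares without the 100 highest genes, and subtraction of the trend with exonic length over the 500 genes nearest in length. Adjustment over the tested genes left in the table was added after the data were seen. Software was matplotlib 3.10.9, pandas 2.3.3, scipy 1.17.1 and numpy 2.4.6 under Python 3.11.15.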

Additional observations from a re-analysis of the deposited data

How the results depend on the processing

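Under the alternatives tried, none of the 36 S106>Xbp1s values of MsrA, smp-30 and Cipc changed its call or sign. The adjusted p of smp-30 ranged from 0.0213 to 0.0651 in gut and from 0.0270 to 0.0755 in fat body, and that of MsrA in gut from 0.0201 to 0.0560. Of 108 alternative values of the RU486 effects, 107 kept sign and call. The exception was Cipc in S106>Xbp1U fat body, at -0.042 with the exonic length trend subtracted. Of 48 alternative differences, 47 did, and Cipc in gut minus fat body of S106>Xbp1U went to 0.14 with that trend subtracted. The cause was not tested. The count of genes falling in both organs was 3 under every setting but hypothesis weighting, where CG3301 made it 4.

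No paired analysis was possible because the tables give no single library's value, and for the same reason no library was left out in turn. How far 1 library decides any of these values is not known. In driver-alone and S106>Xbp1U flies, the smallest change of MsrA, smp-30 or Cipc that the tables would have called was 0.70 on the log2 scale.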
